A study of Mus musculus with 48 samples.

Results

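Joining of the immunoglobulin kappa light chain locus (Igk) was compared between a cycling v-Abl pro-B cell line and bone marrow pre-B cells of the mouse. These were 7 of the 48 samples of the series, taken by title: 4 libraries titled v-Abl_cycling and 3 titled BM_PreB. All 7 were LAM-HTGTS libraries, in which DNA is copied outward from a fixed "bait" end and sequenced into whatever "prey" DNA it has been joined to. The bait here was the Igkj5 segment, and each line of a list was 1 junction with its prey position and strand in the mm9 build. The v-Abl_cycling samples came from a v-Abl transformed 129sv pro-B line with the genotype Emu-Bcl2, RAG2 deficient, whose missing RAG2 was returned by a retrovirus. BM_PreB samples were bone marrow pre-B cells of WT 129sv mice. The titles and the treatment labels of the line differ: the title says cycling, while the treatment label gives 3 uM STI-571 for 4 days. STI-571 inhibits the Abl kinase and is used to arrest such lines. The STI-571 line also stands, as a general entry, on the marrow samples. The titles are used as names below. The labels do not say whether replicates were separate cultures or animals, so p-values concern only these samples. Those of single segments draw on a spread shared over segments. DNA junctions carry no marker genes, so neither cell type could be checked against markers.

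The RAG enzyme makes a light chain gene by joining 1 of many Vk segments to 1 of a few Jk segments. It cuts next to a recombination signal, which has a heptamer, a spacer and a nonamer, and the coding ends are then joined. Vk genes on the same strand as Jk join by deletion of the DNA between, and those on the opposite strand join by inversion. Igk rearrangement normally happens in pre-B cells, after the heavy chain. Further out lies the recombining sequence (RS), which deletes the constant gene Igkc when it is joined to a Vk gene or to a site in the Jk to Igkc intron.

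The sequences below locate the bait, both sites beyond Jk, and the signals of the Vk segments on which the results turn. All are mm9 reference letters written in coding direction for Vk and on the plus strand for the others, and the cells were 129sv while mm9 is a C57BL/6 assembly. Capitals mark the heptamer and, for Vk, also the nonamer. Each Vk line starts with the last coding bases.
Igkj5 bait (chr6:70673840-70673921, plus strand): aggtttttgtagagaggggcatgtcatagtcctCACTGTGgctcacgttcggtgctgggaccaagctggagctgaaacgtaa
Intronic site (chr6:70674988-70675034, plus strand): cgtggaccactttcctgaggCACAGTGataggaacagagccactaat
RS (chr6:70701748-70701794, plus strand): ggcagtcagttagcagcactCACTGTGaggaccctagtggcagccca
Igkv4-80 (chr6:68966524-68966566, minus strand): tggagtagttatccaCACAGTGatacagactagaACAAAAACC
Unannotated segment at 69060903 (chr6:69060870-69060912, minus strand): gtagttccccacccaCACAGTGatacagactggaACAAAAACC
Igkv4-74 (chr6:69134792-69134834, minus strand): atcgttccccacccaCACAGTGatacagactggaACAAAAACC
Igkv4-50 (chr6:69650733-69650775, minus strand): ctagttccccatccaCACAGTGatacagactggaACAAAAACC
Igkv4-92 (chr6:68705004-68705046, minus strand): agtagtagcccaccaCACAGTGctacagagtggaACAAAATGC
Igkv6-32 (chr6:70023990-70024032, minus strand): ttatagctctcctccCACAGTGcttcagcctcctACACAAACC
Igkv8-30 (chr6:70067027-70067069, minus strand): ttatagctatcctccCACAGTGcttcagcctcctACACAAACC
Igkv6-23 (chr6:70210375-70210417, minus strand): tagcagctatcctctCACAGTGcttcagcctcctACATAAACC
Igkv1-122 (chr6:67967468-67967510, plus strand): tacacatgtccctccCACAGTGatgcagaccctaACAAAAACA
Igkv3-7 (chr6:70558016-70558058, plus strand): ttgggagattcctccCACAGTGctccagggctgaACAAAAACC
Igkv3-1 (chr6:70654157-70654199, plus strand): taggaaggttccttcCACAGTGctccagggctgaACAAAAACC
The GENCODE vM1 annotation of this build places 99 Igkv genes on chromosome 6 between Igkv2-137 and Igkv3-1, 38 on the plus strand and 61 on the minus strand. The junctions of a Vk gene lie at the recombining end of its V exon.

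The marrow libraries were far deeper and held almost nothing outside the locus. BM_PreB replicates 1, 2 and 3 held 20911, 32288 and 26937 junctions, and v-Abl_cycling replicates 1 to 4 held 4584, 1945, 5478 and 2160. The share of all junctions in the Vk region was 69.4, 30.03, 72.5 and 31.4% in the v-Abl_cycling libraries and 95.1, 95.2 and 95.4% in the marrow libraries. The groups did not overlap (mean 50.9 ± 23.3%, SD, n = 4, against 95.3 ± 0.163%, SD, n = 3; two-sided exact permutation test, p = 0.0571). That is the smallest p that 4 against 3 libraries allow, and it is 0.0914 after Benjamini-Hochberg adjustment over 16 such shares and means, so none of them could pass 0.05. Between 1255 and 1394 junctions of each v-Abl_cycling library lay on other chromosomes, against 15 to 30 in each marrow library. Of the v-Abl_cycling ones, 0.502 to 1.02% had their bait end within 15 bases of the Igkj5 coding end, against 88.6 to 98.5% of the junctions on chromosome 6. Over junctions with the bait end there, called coding-end junctions below, the Vk share was 94.2 to 97.9% in the line and 95.3 to 95.6% in marrow, and the sign of the mean difference turned to 0.90 percentage points higher in the line. Shares below are of Vk junctions or of coding-end junctions, except where all junctions are named. In the line, replicates 2 and 4 stood apart with 584 and 679 Vk junctions, against 3183 and 3973 in replicates 1 and 3, and 19894 to 30742 in marrow. Over Vk segments no difference beyond sampling noise was found between these 2 libraries (chi-square 49.3 on 38 degrees of freedom, p = 0.104), while every other pair within a group differed. Theirs was the shallowest pair, with 39 segments compared against 68 to 124 in the others. They shared 137 of their 356 and 378 distinct Vk joints, and 259 and 239 with replicate 1. Replicate 1 held 945 distinct joints, so these counts cannot tell whether replicates 2 and 4 were independent. They shared no read names and were kept as 2 libraries. Counted as 1 sample, they left the direction of each of these 16 shares and means, though with 3 samples a side the smallest two-sided exact permutation p is 0.1.

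Vk junctions of the line came more from the middle of the Vk region and less from its distal end than those of marrow cells. The region was split into 3 equal stretches of 1049.5 kb, distal meaning farthest from Jk. The middle stretch held 39.9, 46.4, 42.7 and 47.3% of Vk junctions in the v-Abl_cycling libraries and 31.3, 29.8 and 30.6% in the marrow libraries. Every v-Abl_cycling library was above every marrow library (44.1 ± 3.40%, SD, n = 4, against 30.6 ± 0.755%, SD, n = 3; two-sided exact permutation test, p = 0.0571). The distal stretch held 16.2, 13.9, 14.5 and 14.6% in the line and 26.6, 25.9 and 26.5% in marrow, again without overlap (14.8 ± 0.984 against 26.3 ± 0.354%; exact permutation p = 0.0571). In the proximal stretch the libraries overlapped, at 38.1 to 43.9% in the line and 42.1 to 44.3% in marrow (exact permutation p = 0.343), and the sign turned without v-Abl_cycling replicates 2 and 4, to 0.23 percentage points higher in the line. With preys of at most 100 bases (41.1 against 45.1%) and with distinct junctions counted once (35.6 against 37.0%) every v-Abl_cycling library lay below marrow (exact permutation p = 0.0571 for both).

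**Figure D1:**
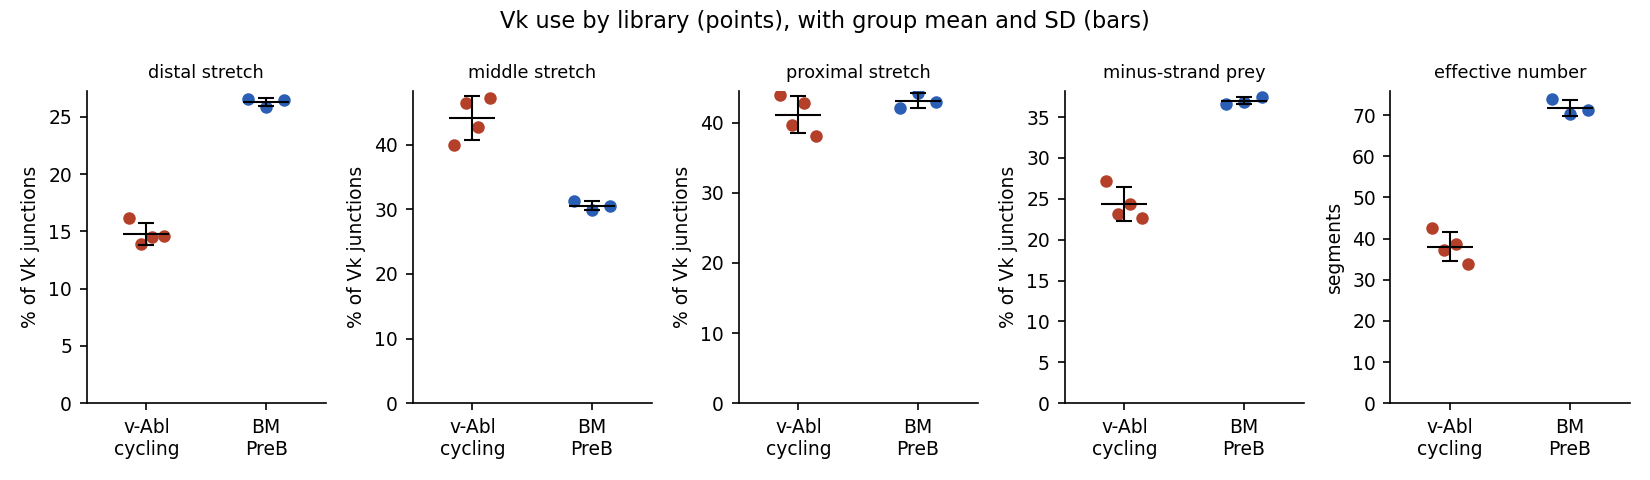
Shares of Vk junctions in each stretch of the Vk region and on the minus prey strand (percent, vertical axes) and the effective number of Vk segments (right panel), by library. Points are libraries, and bars give the mean and SD of 4 v-Abl_cycling and 3 BM_PreB libraries. The groups separate in every panel but the proximal stretch, where the line spans 38.1 to 43.9% and marrow 42.1 to 44.3%.

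The prey strand tells deletion from inversion. A minus-strand prey is a plus-strand Vk gene joined by deletion, and 98.9 to 99.8% of junctions at annotated genes ran in coding direction in each library. Minus-strand preys made up 27.2, 23.1, 24.3 and 22.7% of Vk junctions in the line and 36.6, 36.9 and 37.5% in marrow (24.3 ± 2.05%, SD, n = 4, against 37.0 ± 0.440%, SD, n = 3; exact permutation p = 0.0571). The groups did not overlap, and inversional joins were the majority in every library. Within stretches the strand shares were alike or overlapping, except in the middle. The distal stretch, with 23 plus-strand and 4 minus-strand genes, gave 97.7 to 100% minus-strand preys in the line and 98.6 to 99.0% in marrow. The proximal stretch gave 21.2 to 25.8% in the line and 23.8 to 25.4% in marrow, overlapping. In the middle stretch, with 2 plus-strand and 29 minus-strand genes, minus-strand preys were 0 to 0.738% in the line and 1.21 to 1.38% in marrow. Averaged over segments with equal weight, minus-strand shares were 39.1 in the line and 43.0% in marrow, a difference of 3.86 percentage points beside 12.7 over junctions.

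Fewer Vk segments carried the joins of the line. The effective number of segments, the inverse Simpson index, which is the number of equally used segments that would give the same chance of drawing 1 segment in both of a pair of junctions, was 42.5, 37.2, 38.7 and 33.9 in the line and 74.0, 70.2 and 71.3 in marrow. The groups did not overlap (38.1 ± 3.55, SD, n = 4, against 71.8 ± 1.95, SD, n = 3; exact permutation p = 0.0571). Thinned to 584 Vk junctions per library, the means were 37.0 and 64.4.

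**Figure D2:**
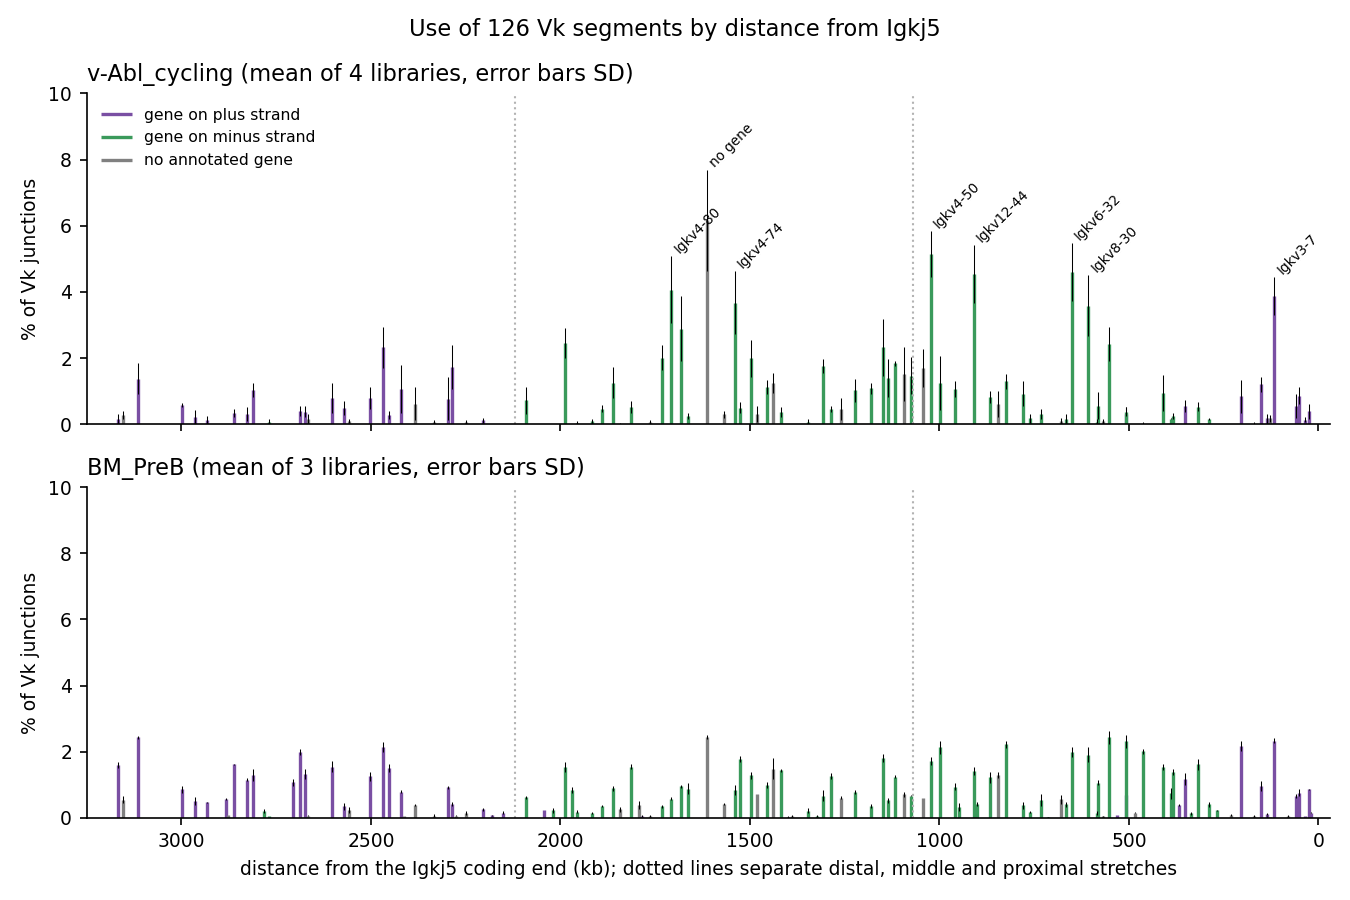
Mean percent of Vk junctions (vertical axis) for each of 126 Vk segments against its distance from the Igkj5 coding end in kb (horizontal axis), in v-Abl_cycling (top, 4 libraries) and BM_PreB (bottom, 3 libraries). Colour gives the strand of the gene, error bars are SD, and dotted lines separate the stretches. In the line a few segments reach 3.59 to 6.17%, while no segment of marrow exceeds 2.44%.

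Vk junctions fell into 181 segments, of which 126 had at least 10 junctions over the 7 libraries and 95 of those an annotated gene. With limma voom, 75 of the 126 (59.5%) passed an adjusted p of 0.05. Of these, 23 (18.3% of those tested) were higher and 52 (41.3%) lower in the line, and the median log2 fold change of all 126 was -0.56. The libraries of the groups did not overlap at 81 segments (64.3%), and 64 (50.8%) were both called and without overlap. Of the 126, 22 had no junction in the far shallower line. Such a segment counts as without overlap as soon as every marrow library holds a junction there, so these counts partly reflect depth. The fit draws on a spread shared over segments, so a call can stand where libraries overlap. The unannotated segment at 69581647 was called higher (adjusted p = 2.38e-07), though v-Abl_cycling replicate 4 (0.589%) lay below every marrow library. With all junctions of a library as its size the split was 5 higher and 73 lower and the median -1.61, and with TMM factors it was 31 higher and 43 lower and the median -0.34. Sequencing run and group coincided: read names put all v-Abl_cycling libraries in 1 run and all marrow libraries in another, so run and group cannot be told apart. Prey alignments were also shorter in the line, with a median of 62 to 66 bases against 116 to 136. With preys of at most 60 bases in both groups, 98 segments were tested, 16 (16.3%) higher and 21 (21.4%) lower, and of the 63 called segments still tested 36 were called again in the same direction and 5 had the opposite sign. With preys of at most 100 bases, 60 of 70 were called again and 0 had the opposite sign, out of 25 higher (21.4%) and 40 lower (34.2%) among 117.

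The 8 segments used most in the line lay in the middle and proximal stretches, and all but Igkv3-7 joined by inversion. The top segment, at position 69060903 and 1613 kb from Igkj5, overlaps no annotated gene but has a full heptamer and nonamer. It took 5.22, 5.14, 5.91 and 8.39% of Vk junctions in the line and 2.40, 2.42 and 2.505% in marrow, where it led by the mean of libraries (2.440%, beside 2.436% for Igkv1-135) but in no single library. Every v-Abl_cycling library was above all marrow libraries (log2 fold change 1.24, SE 0.15, adjusted p = 5.27e-14). Igkv4-50 took 5.03, 6.16, 4.66 and 4.71% in the line against 1.59, 1.83 and 1.74% in marrow, without overlap (log2 fold change 1.51, SE 0.16, adjusted p = 5.67e-19). Igkv6-32 and Igkv12-44 followed with means of 4.59 ± 0.877 and 4.54 ± 0.880% (SD, n = 4), against 1.99 ± 0.160 and 1.41 ± 0.115% in marrow (SD, n = 3). Their log2 fold changes were 1.20 (SE 0.16, adjusted p = 8.33e-12) and 1.59 (SE 0.16, adjusted p = 4.68e-19). Igkv8-30 rose by 1.11 (SE 0.18), from 1.91 to 3.59%. Igkv3-7, a deletional gene 116 kb from Igkj5 that was in the top 8 of both groups, rose by 0.82 (SE 0.17), from 2.33 to 3.88%. With all junctions of a library as its size, Igkv8-30 and Igkv3-7 turned to -0.070 and -0.25, and the other 4 missed the threshold. Igkv6-32 and Igkv3-7 missed the threshold with preys of at most 60 bases, with adjusted p = 0.0862 and 0.0754.

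Among called segments without overlap, the largest rises were in Igkv4 genes. Igkv4-80, 1707 kb out, took 3.11, 5.48, 3.73 and 3.98% of Vk junctions in the line against 0.633, 0.527 and 0.576% in marrow. The lowest v-Abl_cycling library was above the highest marrow library, and the log2 fold change was 2.66 (SE 0.18, adjusted p = 3.39e-39). Its neighbour Igkv4-81 took 1.82, 2.57, 1.76 and 1.91% against 0.307, 0.358 and 0.381% (log2 fold change 2.41, SE 0.24, adjusted p = 3.37e-20). Igkv4-74 took 4.05, 2.91, 2.89 and 4.86% against 0.865, 0.986 and 0.688% (log2 fold change 2.04, SE 0.18, adjusted p = 1.02e-25). In none of these 3 did the groups overlap. Igkv4-57-1 and the unannotated segment at 69631405 rose by 1.74 (SE 0.29) and 1.73 (SE 0.23). Outside the Igkv4 genes, Igkv15-103 of the distal stretch rose by 1.66 (SE 0.25), with 1.16, 2.40, 1.16 and 2.21% in the line and 0.422, 0.475 and 0.358% in marrow. All 6 were past the threshold with preys of at most 60 bases too, and Igkv4-57-1 and the segment at 69631405 missed it with all junctions as library size. With distinct junctions counted once all 6 were called again, at smaller log2 fold changes: 1.63 for Igkv4-80, 1.35 for Igkv4-81, 1.49 for Igkv4-74, 0.995 for Igkv4-57-1, 1.28 for the segment at 69631405 and 0.88 for Igkv15-103. Over all segments 56 of the 75 calls were made again with distinct junctions.

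Several segments in regular use in marrow were nearly or wholly missing from the line. Igkv6-23, 463 kb from Igkj5, had 3 of 8419 Vk junctions in the line, all in replicate 1, and 1541 of 76347 in marrow, where its share was 2.00, 2.09 and 1.94%. The pooled ratio of marrow to line was 56.6, with an exact 95% interval of 19.3 to 275 that covers counting error only. Igkv1-122 of the distal stretch had 1 junction in the line and 806 in marrow (1.16, 0.940 and 1.11%), a pooled ratio of 88.9 with an interval of 15.9 to 3515. Both were called lower, with adjusted p = 6.28e-18 and 1.26e-13. Their fitted log2 fold changes were -5.32 and -4.68, and -3.16 and -2.81 with distinct junctions counted once. Igkv4-92 had none in the line and 639 in marrow (0.950, 0.839 and 0.747%). A count of 0 of 8419 allows a share of up to 0.0356%, taking 3 junctions over the group as the floor. By that floor Igkv4-92 was at least 23.5-fold lower in the line, and Igkv9-129, with 0 and 438 junctions, at least 16.1-fold lower. The lower ends of the exact 95% intervals of these ratios were smaller, at 19.05 and 13.04. The fitted log2 fold changes were -4.66 and -4.12, or -3.32 and -2.76 with distinct junctions counted once. Both genes passed the minimum of 10 junctions through marrow alone, so their calls (adjusted p = 5.86e-13 for Igkv4-92) are no separate support. Igkv6-23, Igkv1-122 and Igkv4-92 were also called lower with preys of at most 60 bases. For Igkv9-129 that check could not be made, since 0.0147% of marrow junctions with such preys fell there, while its log2 fold change with preys of at most 100 bases was -3.83.

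Of the 6 segments with the largest falls, 2 were seen only through long preys. Igkv5-43 and the unannotated segment at 68880264 had 312 and 274 junctions in marrow and none in the line. Both held 0% of marrow Vk junctions with preys of at most 100 bases, and 0.678 and 0.595% of those with longer preys. The Untreated_Wapl-degron libraries came from a RAG1 deficient B6 pro-B line, also v-Abl transformed, that carries Emu-Bcl2, a Wapl-degron, OsTIR1 and Single Igh and was given RAG1/2 by retrovirus. Despite the title they carry the label of 3 uM STI-571 for 4 days, and their Vk preys had a median of 62 bases. There these 2 segments held 0.000244 and 0.000262% of Vk junctions. Over all tested segments 22 had no junction in the line and so passed the minimum of 10 junctions through marrow alone. Among the 52 lower calls, 10 were such segments, and of those 10 the count with no marrow junction was 7 for preys of at most 60 bases and 3 for preys of at most 100.

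**Figure D3:**
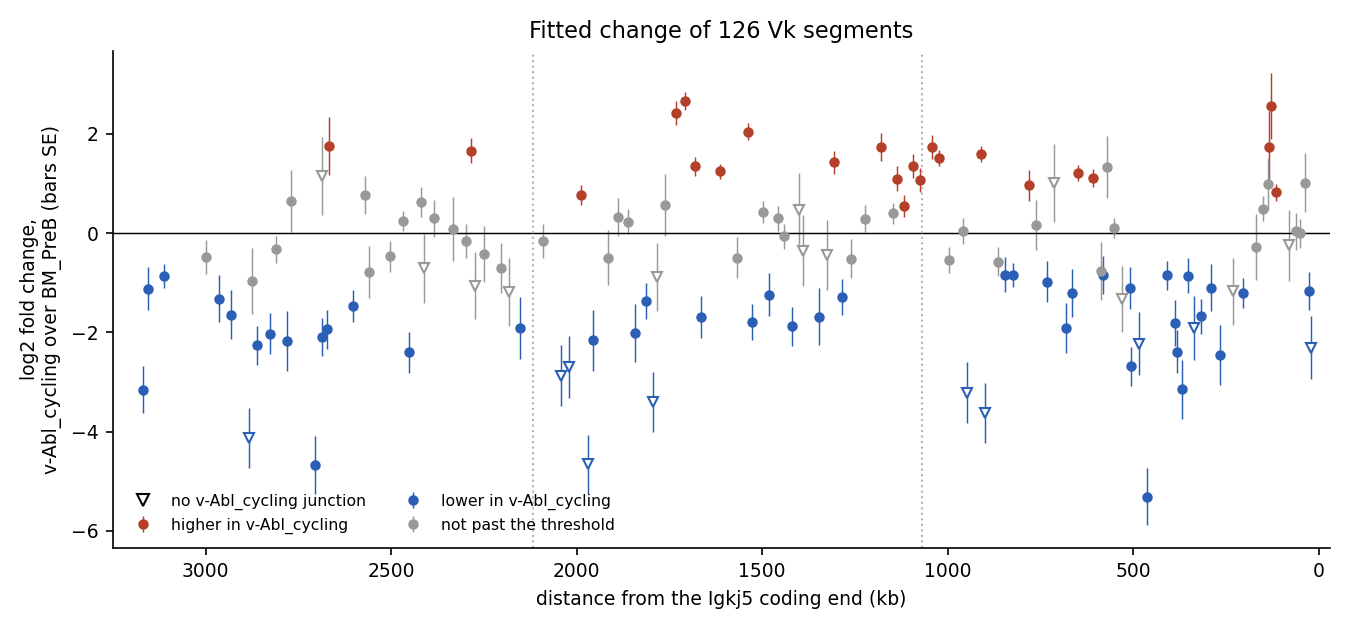
Fitted log2 fold change of v-Abl_cycling over BM_PreB (vertical axis, bars SE) for 126 Vk segments against distance from the Igkj5 coding end in kb. Red points are the 23 segments higher in the line, blue the 52 lower, grey those not past the threshold, and open triangles the 22 with no junction in the line, whose fitted values are no bounds. The cluster of red points in the middle stretch lies among blue ones.

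The annotated segments nearest to and farthest from Jk were both lower in the line. Igkv3-1, the annotated segment nearest to Jk at 19.7 kb, had no junction in the line and 0.146, 0.166 and 0.167% in marrow. By the floor of 3 junctions it was at least 4.52-fold lower, with 3.62 as the lower end of the exact 95% interval. It passed the minimum of 10 junctions through marrow alone, so its call (adjusted p = 0.000764) is no separate support. With preys of at most 60 bases it missed the threshold (adjusted p = 0.0862). Igkv2-137, the farthest at 3168 kb, held 0.377, 0.171, 0.101 and 0% in the line and 1.498, 1.69 and 1.62% in marrow (log2 fold change -3.16, SE 0.48, adjusted p = 8.08e-10). Next to Igkv3-1, Igkv3-2 at 24.8 kb was also called lower (means 0.389 and 0.858%, log2 fold change -1.17, adjusted p = 0.00614). Igkv3-3 and Igkv3-4, at 36.4 and 51.5 kb, were not called, at means of 0.141 and 0.870% in the line and 0.0585 and 0.762% in marrow. Next to Igkv2-137, the unannotated segment at 67518923 (adjusted p = 0.0175) and Igkv1-135 were called lower. The segment at 67518923 missed the threshold with TMM factors (adjusted p = 0.0650) and with preys of at most 100 and 60 bases (adjusted p = 0.0864 and 0.142). Among the other top segments of marrow, Igkv8-24 fell by 2.69 on the log2 scale (SE 0.39), from 2.31 ± 0.190 to 0.379 ± 0.142%, and by 1.15 with distinct junctions counted once. Igkv1-135, Igkv5-39 and Igkv3-12 fell by 0.87, 0.84 and 1.21. These 3 missed the threshold with distinct junctions counted once, at adjusted p = 0.339, 0.256 and 0.469, and Igkv1-135 also without v-Abl_cycling replicate 3, at adjusted p = 0.0634. Igkv8-27 and Igkv14-111 did not pass the threshold, with log2 fold changes of 0.092 and 0.25, though Igkv14-111 did with distinct junctions counted once (0.83, adjusted p = 0.000106).

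By family, Igkv4 and Igkv12 genes held larger shares in the line and Igkv1, Igkv6, Igkv8 and Igkv17 genes smaller ones. Family shares were not tested, and counts of calls stand beside 18.3% higher and 41.3% lower over all segments. The 24 Igkv4 genes took 30.9 to 39.6% of Vk junctions in the line and 20.8 to 21.5% in marrow (34.1 ± 3.86 against 21.2 ± 0.356%), without overlap. Of these 24, 10 were called higher and 8 lower, with a median log2 fold change of 0.34 beside -0.56 over all. With TMM factors 12 were higher and 8 lower (medians 0.58 and -0.34), beside 24.6% higher and 34.1% lower over all segments, so the lower calls were near that share. With preys of at most 60 bases 8 of 20 were higher and 2 lower, beside 16.3 and 21.4%. Igkv12, with 2 of 6 called higher and 1 lower, held 7.83 ± 1.25% in the line and 4.47 ± 0.189% in marrow. Most of that difference lay at a single gene, Igkv12-44, with 4.54 against 1.41%. With preys of at most 60 bases 1 of 6 was higher and 0 lower, so the higher calls were near the 16.3% over all segments. Igkv1 held 4.53 ± 1.23% against 8.91 ± 0.422% in marrow, with 5 of 9 called lower and 0 higher and a median log2 fold change of -1.19. Igkv6 held 6.42 ± 1.09 against 8.996 ± 0.605% (7 of 9 lower, 1 higher), and Igkv8 held 8.17 ± 1.20 against 11.2 ± 0.0736% (6 of 9 lower, 1 higher). With TMM factors 4 of 9 Igkv6 and 4 of 9 Igkv8 genes were lower, beside 34.1% of all segments. At most 60 prey bases gave 6 of 9 and 2 of 7, beside 21.4%, so Igkv8 was near the share over all segments there. Igkv17 held 3.602 ± 0.102% in marrow and 0.744 ± 0.0619% in the line, and both of its tested genes were called lower. Igkv17-127 and Igkv17-121 missed the threshold with preys of at most 60 bases (adjusted p = 0.227 and 0.361) and with distinct junctions counted once (adjusted p = 0.0917 and 0.129). Libraries of the groups did not overlap in any of these families. Nor did they in smaller ones: Igkv5 (2.72 in the line against 5.28%), Igkv9 (0.440 against 2.16%), Igkv10 (0 against 0.463%), Igkv13 (0 against 0.0656%) and Igkv14 (2.90 against 4.01%) were below marrow, and Igkv15 (1.73 against 0.418%) and Igkv19 (2.45 against 1.53%), with 1 tested gene each, above. The Igkv13 gene, Igkv13-84, was not called (adjusted p = 0.251) and held 0% of marrow junctions with preys of at most 100 bases. Igkv5-43 and Igkv5-45, called lower with no junction in the line, also held 0% of marrow junctions with such preys. The other Igkv5 gene called lower, Igkv5-39, missed the threshold with distinct junctions counted once (adjusted p = 0.256). The Igkv10 genes, Igkv10-94 and Igkv10-95, held 0% of those with at most 60, and Igkv10-95 missed the threshold with at most 100 (adjusted p = 0.0533). Of the Igkv9 genes, 2 could be tested with at most 60, and 0 were called lower. Igkv9-120 then turned from a log2 fold change of -1.94 to 1.03 (adjusted p = 0.227). The groups did overlap for Igkv3, at 6.19 to 9.02% in the line and 6.87 to 7.75% in marrow, with 1 of 8 called higher and 3 lower, near the shares over all segments. They also overlapped for Igkv2, Igkv7, Igkv11, Igkv16 and Igkv18. Among single segments 64.3% were without overlap, so separation alone does not set the families without overlap apart.

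By position, against 18.3% higher and 41.3% lower over all segments, 12 of 41 middle-stretch segments were called higher and 13 lower (median log2 fold change -0.068, turning to 0.16 with TMM factors), against 2 and 15 of 35 distal ones (median -0.87) and 9 and 24 of 50 proximal ones (median -0.84). Of 38 plus-strand genes 2 were higher and 20 lower (median -1.14), and of 57 minus-strand genes 15 were higher and 25 lower (median -0.49). In the middle stretch the balance moved with prey length, to 14 higher and 8 lower of 38 with preys of at most 100 bases and to 9 and 2 of 29 with at most 60. Over all segments, which include that stretch, the split went to 21.4% higher and 34.2% lower and then to 16.3 and 21.4%. Distal segments went to 2 higher and 13 lower of 34, and then to 3 and 7 of 28. Proximal ones went to 9 and 19 of 45, and then to 4 and 12 of 41. Lower calls thus stayed more frequent in both of these stretches. At most 60 bases gave 10 higher and 9 lower of 47 minus-strand genes, near the 16.3 and 21.4% over all segments at that setting, and 2 and 11 of 33 plus-strand genes. Segments without an annotated gene held 10.96 to 15.9% of Vk junctions in the line and 11.1 to 12.7% in marrow, overlapping, with 6 of 31 called higher and 7 lower. The higher calls of proximal and of unannotated segments were near the share over all segments.

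Neighbouring genes with the same signal letters differed in opposite directions. The signal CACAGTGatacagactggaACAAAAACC, in which capitals mark heptamer and nonamer, stands at 10 tested Igkv4 genes in mm9 (and at the unannotated segment at 69060903), of which 4 were higher, 4 lower and 2 not called. Igkv4-74, Igkv4-61, Igkv4-55 and Igkv4-50 rose by 2.04, 1.42, 0.55 and 1.51 on the log2 scale. Igkv4-86, Igkv4-73, Igkv4-68 and Igkv4-59 fell by 1.37, 1.80, 1.88 and 1.29. Igkv4-74 and Igkv4-73, 1539 and 1526 kb from Igkj5, moved apart. Igkv4-73 took 0.440, 0.342, 0.503 and 0.736% in the line and 1.85, 1.82 and 1.69% in marrow, below marrow in every library. Igkv4-74 and Igkv4-50 were named by the rule for top and most changed segments, and the others after their values were seen. With distinct junctions counted once, Igkv4-73, Igkv4-59 and Igkv4-55 missed the threshold (log2 fold changes -0.47, -0.26 and 0.43, adjusted p = 0.0999, 0.372 and 0.0604). With preys of at most 100 bases, Igkv4-86 and Igkv4-73 were again lower and Igkv4-68 and Igkv4-59 missed the threshold (adjusted p = 0.0864 and 0.219), while Igkv4-72 and Igkv4-70 were called higher. With preys of at most 60 bases the rises of Igkv4-74, Igkv4-61 and Igkv4-50 and the fall of Igkv4-86 were called again. Igkv4-68 and Igkv4-59 then had log2 fold changes of 0.60 and 1.53, of opposite sign and not past the threshold, and Igkv4-73 had too few such junctions to be tested.

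**Figure D4:**
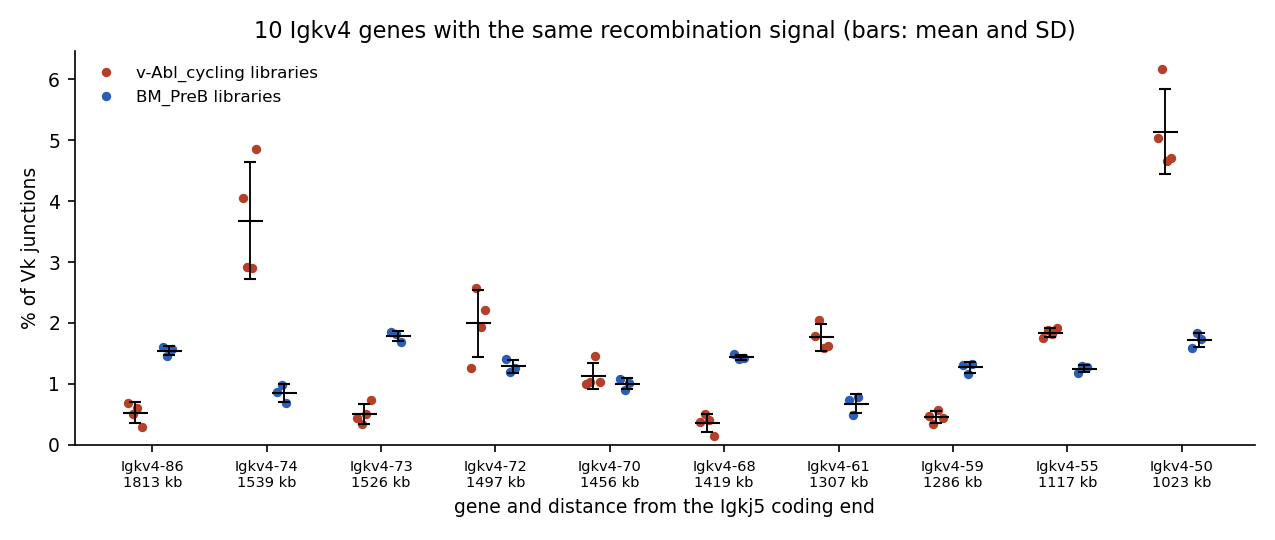
Percent of Vk junctions (vertical axis) at the 10 tested Igkv4 genes with 1 shared recombination signal, ordered by distance from the Igkj5 coding end in kb. Points are libraries, red for v-Abl_cycling and blue for BM_PreB, and bars give mean and SD. Igkv4-74 at 3.68% and Igkv4-50 at 5.14% stand out in the line, while the marrow means span 0.673 to 1.79%.

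Both directions were also found at 2 other shared signals, while the rest held calls of 1 direction or none. Igkv6-32 and Igkv8-30, both higher, share CACAGTGcttcagcctcctACACAAACC with 5 other genes, all called lower. Of these 7, 2 were called again with preys of at most 60 bases, Igkv8-30 higher and Igkv6-17 lower, and 1 could not be tested. With distinct junctions counted once Igkv6-17 and Igkv8-28 missed the threshold (adjusted p = 0.107 and 0.393), so none of the 5 lower calls was made under both of these settings. The signal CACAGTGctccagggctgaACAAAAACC of Igkv3-7, higher, also stands at 7 other genes including Igkv3-12 and Igkv3-1, both lower. In all, 3 of these 8 were lower and 4 not called. As a description, the full heptamer CACAGTG was present at all 17 annotated genes called higher and at 38 of 45 (84.4%) called lower, beside 82 of all 95 (86.3%), on the gene's coding strand only. The full nonamer ACAAAAACC was present at 11 of 17 (64.7%), 10 of 45 (22.2%) and 33 of 95 (34.7%). Genes of a family share signals, so they are not independent.

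On the J side, the marrow libraries held joints of the Igkj5 bait to RS and the line nearly none. Joints of RS to a Vk gene or to the intronic site, which delete Igkc, are not counted from this bait. RS junctions peaked at position 70701774, 25.0 kb past the end of Igkc. They made up 1.98, 1.88 and 1.57% of coding-end junctions in marrow and 0, 0.323, 0.0246 and 0.141% in v-Abl_cycling replicates 1 to 4. These were 1440 of 79968 junctions in marrow and 4 of 8627 in the line, 0, 2, 1 and 1 by library. Every v-Abl_cycling library was below every marrow library (0.122 ± 0.147%, SD, n = 4, against 1.81 ± 0.213%, SD, n = 3; two-sided exact permutation test, p = 0.0571). The pooled ratio of marrow to line was 38.8, with an exact 95% interval of 15.1 to 143 for counting error only. In replicates 1 and 3 alone the mean share was 0.0123%. The means were 0.132% in the line and 3.71% in marrow with preys of at most 100 bases. Of the marrow RS junctions 1393 were minus-strand preys, whose reads run through the heptamer toward Igkc. The Untreated_Wapl-degron libraries, labelled with STI-571 like the line and with a similar prey length, held 5.81 ± 0.574% (SD, n = 3) at RS. Libraries titled IAADox_Wapl-degron, also labelled with 3 uM STI-571 and with a median Vk prey of 62 bases, held a mean of 0.629% (n = 2). The cause of these differences was not tested.

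The intronic site, 1083 bases past the end of Igkj5, was used by both groups. It took 0.648, 0.645, 0.197 and 0.141% of coding-end junctions in the line (34 junctions) and 0.575, 0.670 and 0.580% in marrow (492 junctions). The libraries overlapped (0.408 ± 0.277 against 0.609 ± 0.0533%; exact permutation p = 0.457). They separated with preys of at most 100 bases, at 0.373 against 0.764% (exact permutation p = 0.0571). Past Jk5 but outside both sites the line held 29 junctions and marrow 37, at 0.309, 0.484, 0.394 and 0% by library against 0.0341 to 0.0575%. Replicate 4 lay below every marrow library and the other 3 above. Between the Vk region and Jk there were 0 in the line and 7 in marrow, all 7 in BM_PreB replicate 3. The count of 0 of 8627 allows a share of up to 0.0348% by the same floor of 3 junctions. The Vk region ends at the last coding base of Igkv3-1, so a junction just past that base would be counted here.

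Between the bait and the other Jk segments, the libraries of the groups overlapped over the Jk region on either strand and at the heptamer sides of Igkj1 and Igkj2. They did not overlap at the coding sides or the 3′ ends of Igkj1, Igkj2 and Igkj4, or at the heptamer side of Igkj4. The Jk region as a whole, with 100 bases on each side, held 0.833, 2.90, 1.36 and 3.24% of coding-end junctions in the line and 2.03, 2.04 and 2.07% in marrow, so the line lay on both sides of marrow. As a share of all junctions the means were 1.68 ± 0.561 and 2.13 ± 0.0289% (exact permutation p = 0.4), and the sign turned with coding-end junctions alone. As shares of all junctions the groups separated, with the line lower, with distinct junctions counted once (0.908 against 3.69%) and with preys of at most 100 bases (1.02 against 1.87%; exact permutation p = 0.0571 for both). Other chromosomes held 714 to 803 distinct positions in each v-Abl_cycling library and 14 to 30 in each marrow library, which enter the first of these shares. Minus-strand preys there numbered 103 and 980 (pooled ratio of marrow to line 1.03, exact 95% interval 0.837 to 1.27). By library they took 0.772, 2.58, 1.16 and 2.11% in the line and 1.17, 1.32 and 1.16% in marrow, so the line's mean was higher (1.66 ± 0.835 against 1.21 ± 0.0898%) with overlap. Plus-strand preys numbered 20 and 657 (pooled ratio 3.54, interval 2.28 to 5.84), at 0.0617, 0.323, 0.197 and 1.13% in the line and 0.868, 0.720 and 0.908% in marrow. Replicate 4 of the line was above all marrow libraries and the other 3 below. At the coding side of Igkj1, plus strand, there were 7 and 297 junctions (ratio 4.58, interval 2.19 to 11.5), and at that of Igkj2 there were 3 and 256 (ratio 9.21, interval 3.11 to 44.9). Of these 3, 2 lay in replicate 4 of the line, at 0.282% beside 0.301 to 0.357% in marrow, and 1 in replicate 3. At the coding side of Igkj4 there were 1 and 96 (ratio 10.4, interval 1.81 to 413). On the heptamer side, minus strand, Igkj1 had 39 and 399 (ratio 1.10, interval 0.793 to 1.58) and Igkj2 had 24 and 230 (ratio 1.03, interval 0.678 to 1.65). For Igkj1 the mean over libraries was higher in the line, at 0.7502 ± 0.529 against 0.491 ± 0.0602%, and the libraries overlapped. The heptamer side of Igkj4 had 10 and 149 (ratio 1.61, interval 0.850 to 3.42). There every v-Abl_cycling library was below marrow, at 0 to 0.148% against 0.177 to 0.199%. At the 3′ ends, also minus strand, Igkj1 had 2 junctions in the line and 100 in marrow (ratio 5.39, interval 1.45 to 45.2), and Igkj2 had 2 and 80 (ratio 4.32, interval 1.16 to 36.2). The 3′ end of Igkj4 went the other way, with 22 in the line and 10 in marrow (ratio 0.0490, interval 0.0207 to 0.108), above marrow in each of the 4 libraries. Igkj3, the Jk segment known not to rearrange, had 0 in both groups at all 3 sites counted, which allows up to 0.0348% in the line and 0.00375% in marrow by that floor. The intervals pool libraries that differed beyond counting error and cover counting error only.

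**Figure D5:**
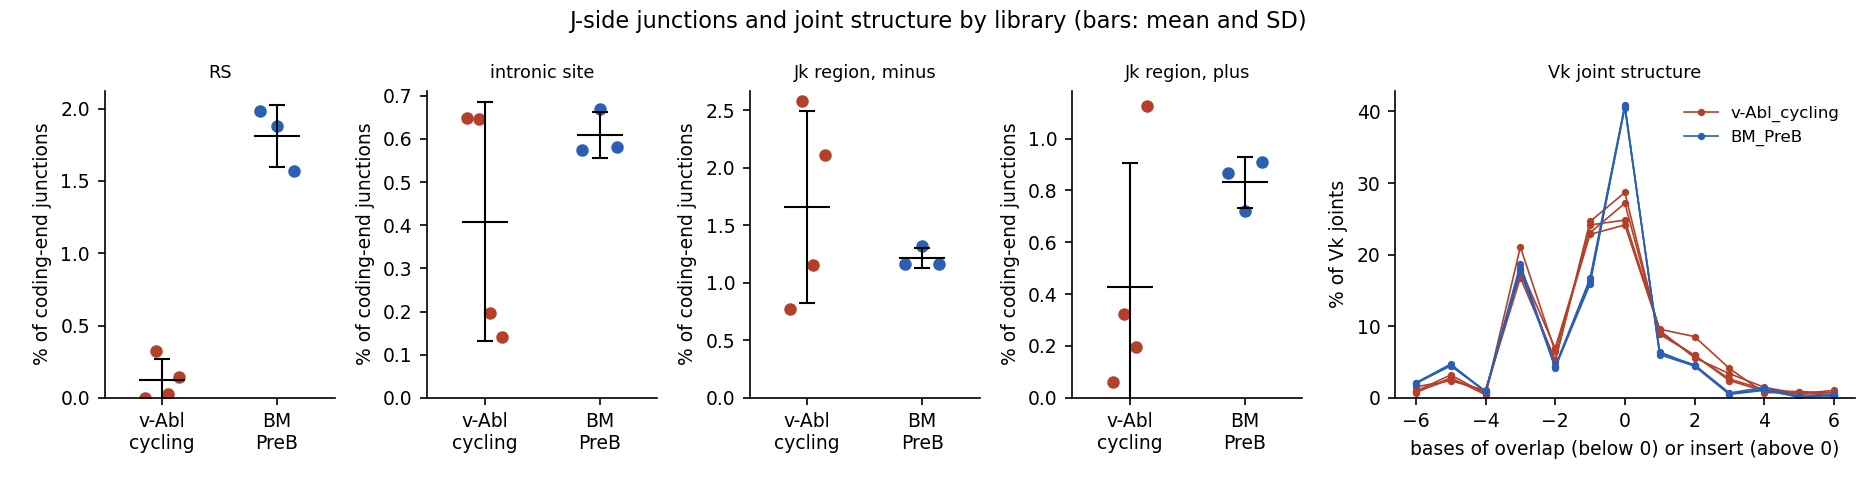
Percent of coding-end junctions (vertical axes) at RS, at the intronic site and in the Jk region by prey strand, by library with mean and SD, and at right the percent of Vk joints by number of overlapping (below 0) or inserted (above 0) bases, 1 line per library. RS separates the groups, at 0 to 0.323% in the line and 1.57 to 1.98% in marrow, and blunt joints (at 0) are fewer in the line.

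Fewer Vk joints of the line were blunt, with neither inserted bases nor overlap between prey and bait. Blunt joints made up 28.7, 24.8, 27.2 and 24.2% in the line and 40.7, 40.5 and 40.9% in marrow (26.2 ± 2.10 against 40.7 ± 0.187%; exact permutation p = 0.0571), and 28.8 against 37.1% with distinct junctions counted once. Joints with inserted bases were 19.8, 23.97, 20.1 and 21.5% in the line and 13.6, 12.9 and 12.7% in marrow, without overlap (21.3 ± 1.92 against 13.1 ± 0.481%; exact permutation p = 0.0571). The difference of 8.25 percentage points was 1.80 with distinct junctions counted once. Insertions were short in both groups, with a median of 2 bases in every library. Overlap of prey and bait, bases that fit either side, was found in 51.6, 51.2, 52.8 and 54.3% against 45.7, 46.6 and 46.4% (exact permutation p = 0.0571), also without overlap between groups. An overlap of 1 base accounted for 22.8 to 24.6% of joints in the line and 15.9 to 16.7% in marrow, and 3 bases for 16.8 to 21.1% and 17.9 to 18.6%.

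At the Igkj5 coding end the line had lost more bases, 1.34, 1.22, 1.37 and 1.32 on average against 1.05 in each marrow library, and the full end was kept in 30.7 to 35.3% of joints against 42.1 to 42.4%. The means did not overlap (1.31 ± 0.0637 against 1.05 ± 0.00305 bases; exact permutation p = 0.0571), but with distinct junctions counted once the sign turned, to 1.57 against 1.69 bases. At the Vk coding end the mean loss was 2.03 to 2.34 bases in the line and 2.23 to 2.27 in marrow, overlapping (exact permutation p = 0.571), and 2.56 against 3.11 bases without overlap with distinct junctions counted once (exact permutation p = 0.0571). In-frame joints made up 38.9, 39.8, 34.8 and 35.6% in the line and 40.03, 39.5 and 39.99% in marrow, with overlap (exact permutation p = 0.114), and with distinct junctions counted once the means were 35.7 and 31.8%.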

How the data were processed

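Junction lists were deposited by the authors with 1 line per junction. Other values in these lists are prey and bait positions in mm9 and other alignment fields; per the submitters' processing notes the alignment tool was Bowtie2 and the build mm9, and further steps are not given in the sources used here. Members and lists were chosen with earlier results of these data known.

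Junctions with a bait on chromosome 6 were counted here. Junction positions of the 7 libraries at most 20 bp apart were merged into segments, which took the name of an Igkv gene within 20 bp (GENCODE vM1, assembly NCBIM37, whose chromosome 6 is 149517037 bases long). Segments with at least 10 junctions were tested with limma 3.58.1 voom (prior count 0.5, library size the Vk junctions, Benjamini-Hochberg adjustment over all 126). The prior raises the fitted value of segments with no junction in the shallow libraries. Shares were compared by two-sided exact permutation over 4 against 3 libraries (35 arrangements). Joint fields were read from the alignment ends in each line; a trimmed end was counted between -2 and 30 bases. Intervals are exact (Clopper-Pearson) at 95% and, as PCR copies may be counted, cover counting error only. Counting distinct junctions once left 329 to 905 Vk junctions per v-Abl_cycling library and 2339 to 2614 per marrow library. It shrank the deeper marrow libraries more.

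Named segments were the 8 most used in each group, the 6 largest changes in each direction among called segments whose libraries did not overlap, and the annotated ones nearest to and farthest from Jk. On simulated counts of this comparison (124 segments, 40 changed 4-fold) 80% of changes were recovered, with 4 false calls. The simulation set its own spread between libraries (0.2 on the log scale) and raised as many segments as it lowered. The data gave 23 higher and 52 lower calls, so the simulation does not give the error rate of these calls. The limits on prey length, the restriction to coding-end junctions, both alternatives on replicates 2 and 4, and 6 of the 16 shares and means (RS, intronic site, frame, both trims and blunt joints) were added after seeing the data. Analyses used Python 3.11.15, scipy 1.17.1 and R 4.3.3.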

Additional observations from a re-analysis of the deposited data

Results flagged for a closer look

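In v-Abl_cycling, 2 of 42 groups of 4 values stood out because 1 library lay far from the others by Dixon's test. The usual rate of chance flags, about 1 in 20 groups, does not hold for groups of mostly zeros. Replicate 1 held 0.0314% of its Vk junctions at Igkv1-122 and the other 3 libraries none. Replicate 1 also held 0.0943% at Igkv6-23 and the others none. These are 1 and 3 junctions. With all other values at 0, even 1 junction flags a group, so the test cannot tell whether replicate 1 was unusual.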

How the results depend on the processing

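Differences are line minus marrow. For the count of called segments (75), values were 128 with at least 1 junction per segment, where 43 of the 76 higher calls had no junction in the line, and 37 with preys of at most 60 bases. Leaving out 1 library gave 63 to 79, and the other alternatives 65 to 84 (84 with v-Abl_cycling replicates 2 and 4 counted as 1 sample). Deviations of libraries with the same number correlated at -0.0271, -0.0653 and 0.0743, so the numbers did not pair them; the replicate block gave 71 calls and changed no share's direction. The Vk share of all junctions turned to 0.90 points with coding-end junctions, the proximal share to 0.23 without v-Abl_cycling replicates 2 and 4, the Jk-region share to 1.89 over chromosome 6 outside Jk and to 0.036 with coding-end junctions, the share past the C gene side to 1.95 over chromosome 6, and the in-frame share to 3.89 with distinct junctions. The Vk end trim turned to 0.017 bases without replicates 2 and 4, and the Jk5 end trim to -0.12 with distinct junctions. With total junctions as library size, log2 fold changes turned to -0.76 for Igkv14-111, -0.070 for Igkv8-30, -0.89 for Igkv8-27 and -0.25 for Igkv3-7. Igkv8-27 was -0.21 and -0.29 with preys of at most 100 and 60 bases and -0.013 to 0.15 with v-Abl_cycling replicates left out singly (negative without replicate 3), and Igkv14-111 was -0.029 with at most 60. The causes were not tested. A fit with sequencing run as a block was not run, since no run held both groups.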
